A study of Mus musculus with 12 samples.

Results

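Fabp1, Fabp2, Fabp4 and Cd36 encode proteins that carry fatty acids into and through cells, and they were taken from the array by their gene names. They are 4 of the 330 genes on the array, each with 1 spot. The rule of choice named genes and no measured value, but earlier results of these data were known when they were chosen. Cytosolic fatty acid binding proteins hold long-chain fatty acids in solution and pass them between membranes, enzymes and nuclear receptors, and each tissue has its own form. Fabp1 is the form of the hepatocyte and also of the enterocyte, Fabp2 is the intestinal form, and Fabp4 is the form of adipocytes and macrophages. Cd36 is a membrane protein that takes up long-chain fatty acids and, on macrophages, oxidised lipoproteins, and in rodent liver both Fabp1 and Cd36 are known targets of nuclear receptors of the PPAR family.

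Liver RNA came from 12 male ApoEshl mice, a line with a spontaneous defect of apolipoprotein E that every animal here carries, with a labelled age of 7-8 weeks. The fucoidan group (6 mice) ate a high-fat diet that held 5% fucoidan, a seaweed polysaccharide rich in sulphated fucose, for 12 weeks. The HFD group (6 mice) ate the high-fat diet alone for 12 weeks. The labels do not say whether the age is that at the start or at the end of the diet, and mice on a normal diet or a lower fucoidan dose were not analysed here. Each mouse was hybridised alone, in 1 colour, from 10 µg of total RNA, so precision is set by how many arrays there are. The p-values rest on the spread between arrays, 1 to a mouse, which mixes differences between mice with those between arrays and spots. All arrays lay on 1 slide with the diet groups in separate blocks, so that slide position and diet cannot be told apart.

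Signal is given as foreground intensity, the scanner's linear brightness of a spot before any scaling. An array's detection limit was the mean plus 2 SD of its 41 control spots (16 of negative control sequences and 25 empty), and it ran from 121 to 143. Median foreground over the control spots was 88 to 99. The tissue label was checked against markers: all 8 hepatocyte markers on the array were above the limit on at least 6 arrays, with summed foreground of 81435 to 111920 in fucoidan mice and 69922 to 96664 in HFD mice.

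The promoter sequences of the members are shown because Fabp1 and Cd36 share a known class of regulator, whose half-site can be looked for. Fabp2 is shown beside them without a claim that it lacks such regulators. The 250 bases before the RefSeq start (build GRCm38.p6) were held for 3 of the 4 genes, Fabp4 being the other. Fabp1 lies on the plus strand at chr6:71199879-71205034, Fabp2 on the plus strand at chr3:122895072-122899506, Fabp4 at chr3:10204342-10208616 and Cd36 on the minus strand at chr5:17781690-17888959. The promoters are chr6:71199629-71199878 for Fabp1, chr3:122894822-122895071 for Fabp2 and chr5:17835897-17836146 for Cd36, the last at a start inside the annotated span of the gene. Each runs 5′ to 3′ on the strand of its gene. Capitals mark matches, on either strand, to the nuclear receptor half-site AGGTCA, which in all cases here lies on the opposite strand and so reads as its reverse complement. They also mark the TATA box, spelled TATAAA, and no match overlaps another.
Fabp1: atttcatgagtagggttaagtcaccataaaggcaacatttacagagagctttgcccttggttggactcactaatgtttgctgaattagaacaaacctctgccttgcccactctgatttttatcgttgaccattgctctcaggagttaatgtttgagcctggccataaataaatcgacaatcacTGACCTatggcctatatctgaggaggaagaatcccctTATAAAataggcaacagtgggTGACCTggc
Fabp2: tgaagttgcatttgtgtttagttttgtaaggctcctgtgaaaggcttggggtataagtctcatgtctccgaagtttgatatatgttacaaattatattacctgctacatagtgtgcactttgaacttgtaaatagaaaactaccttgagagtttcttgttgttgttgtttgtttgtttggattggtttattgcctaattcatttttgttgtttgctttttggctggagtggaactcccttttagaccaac
Cd36: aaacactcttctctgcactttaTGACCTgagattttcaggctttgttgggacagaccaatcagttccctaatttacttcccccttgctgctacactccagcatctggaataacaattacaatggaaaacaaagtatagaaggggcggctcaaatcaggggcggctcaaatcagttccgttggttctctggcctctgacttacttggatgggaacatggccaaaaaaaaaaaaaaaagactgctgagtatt

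The Fabp1 window held the half-site in 2 places, 67 to 62 and 9 to 4 bases before the start, and a TATA box 30 to 25 bases before it. The Cd36 window held 1 half-site, 228 to 223 bases before the start, and the Fabp2 window held neither motif. Searched on both strands, 14.02% of 32851 mouse promoters of this length hold the half-site and 12.4% hold the TATA box. The direct repeat of 2 half-sites with any 1 base between them is the arrangement that PPAR receptors bind. Spelled exactly, it is in 0.0335% of these promoters and in none of the 3 windows. Repeats with a changed base were not searched for, so a window without an exact match may still hold such a site. A match is a description of these letters and not a shown site, and the array measured no binding.

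Every listed value of the members was checked before use, since the deposited table lists, beside foreground and local background, a difference that can be recomputed. For Fabp2, Fabp4 and Cd36 the listed difference equalled foreground minus background on all 12 arrays. For Fabp1 it did so on 11. On HFD replicate 5 the Fabp1 foreground was 34159 and its background 104, which gives 34055, while the listed difference was 33055, exactly 1000 lower and 97.1% of the computed value. A spot is called failed here if, on any array, its listed and computed differences disagree by more than 0.5. It is also called failed if a value is missing or its foreground exceeds the largest 16-bit value. In all, 41 gene spots failed, and Fabp1 is 1 of only 2 that failed on a single array. No member had a foreground above the largest 16-bit value and none shared its background with another spot on all 12 arrays. The fits below start from foreground and background, so the odd listed value enters only where listed differences are named.

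Fabp1, the liver form, gave the strongest signal of the members over the control spots and the smallest relative spread between mice. Its foreground was 33594 at the lowest, 37664.5 at the median and 48233 at the highest in fucoidan mice, against 28292, 33479.5 and 35345 in HFD mice. 4 fucoidan mice lay above the highest HFD mouse, and the other 2 lay inside the HFD range, so the groups overlapped. Relative to the detection limit the level was 298 times at the median in fucoidan mice and 248 times in HFD mice. Mean foreground was 39064 ± 5567 in fucoidan mice and 32826 ± 2673 in HFD mice (SD, n = 6 each), a ratio of 1.19.

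Fabp2, the intestinal form, stood well above the control spots in every liver. Its foreground was 641 at the lowest, 882.5 at the median and 1270 at the highest in fucoidan mice, against 528, 610.5 and 1168 in HFD mice. Only 1 fucoidan mouse exceeded the highest HFD mouse, HFD replicate 4, whose value stood apart from the other HFD mice, the next being 807. The median was 7.10 times the detection limit in fucoidan mice and 4.77 times in HFD mice. Mean foreground was 928 ± 256 in fucoidan mice and 711 ± 247 in HFD mice (SD, n = 6 each), a ratio of 1.31. The gut and pancreas markers Gcg (60 to 65), Gip (60 to 63), Ins2 (58 to 64), Pdx1 and Iapp were above the limit on no array.

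Fabp4, the adipocyte and macrophage form, lay closest to the control spots, at 1.84 to 8.69 times the detection limit. Its foreground was 243 at the lowest, 380 and 430 in the middle and 1131 at the highest in fucoidan mice, against 253 at the lowest, 334 and 400 in the middle and 762 at the highest in HFD mice. Fucoidan replicate 1 was the highest and fucoidan replicate 5 the lowest of all 12, so the HFD mice lay wholly within the fucoidan range. In a bulk liver sample, fewer cells of a type and less RNA per cell cannot be told apart, and this holds for each gene here. Of 10 adipocyte markers on the array, 8 were above the limit on no array, including the defining Adipoq (59 to 69), Lep (55 to 62) and Plin1 (55 to 63), all below the dimmest empty spot of 75. Cfd, which liver also makes, was the 1 above it on at least 6 arrays, on a failed spot, and it carries most of the summed level of 3174 to 3952 in fucoidan mice and 4256 to 5542 in HFD mice.

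Cd36, the membrane carrier, varied between mice as widely as Fabp4. Its foreground was 420 at the lowest, 745.5 at the median and 1704 at the highest in fucoidan mice, against 345, 679.5 and 1432 in HFD mice. Both groups spread about 4-fold between their lowest and highest mouse (4.06 in fucoidan mice and 4.15 in HFD mice), and their ranges overlapped nearly throughout. Of 3 markers of macrophages and other leukocytes, Ccl2 was above the limit on a failed spot and the cytokines Tnf and Il6 were above it on no array. Their summed foreground was 889 to 1573 in fucoidan mice and 922 to 21151 in HFD mice, and the part of such cells in the Cd36 and Fabp4 values was not tested. Endothelial cells carry Cd36 too, and the 2 endothelial and stellate markers on the array, both above the limit on at least 6 arrays and 1 of them on a failed spot, summed to 213 to 439 in fucoidan mice and 236 to 1196 in HFD mice.

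**Figure D1:**
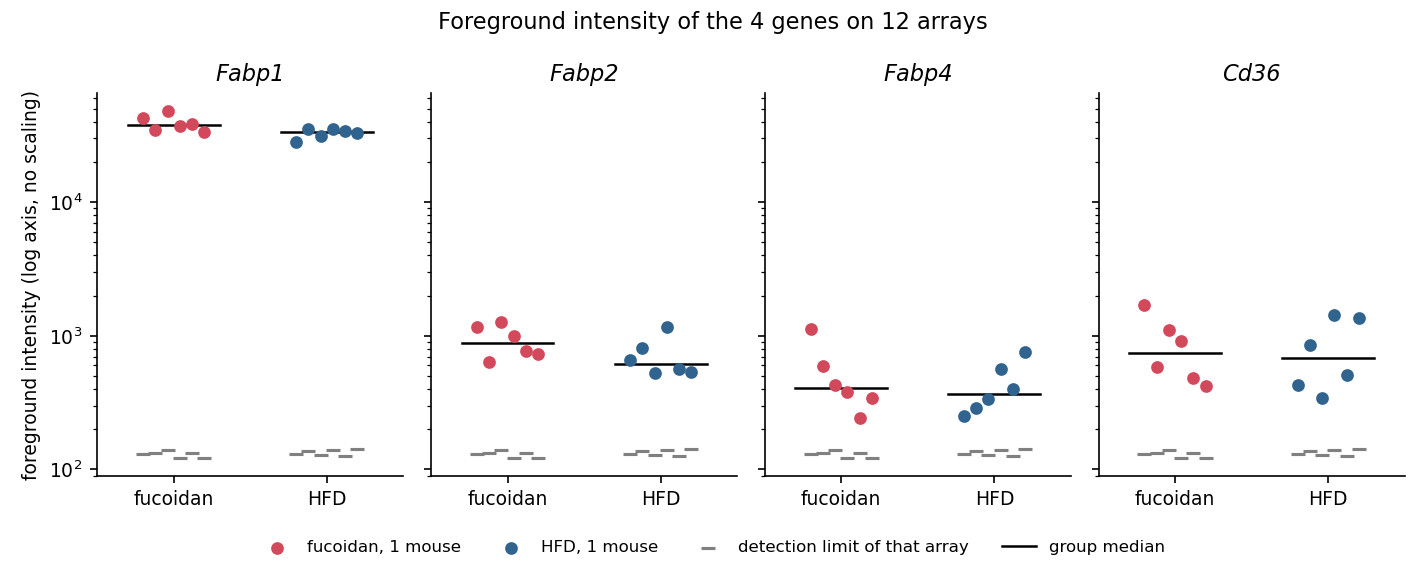
Foreground intensity (log axis, no scaling) of Fabp1, Fabp2, Fabp4 and Cd36 in 6 fucoidan and 6 HFD mice, with points for mice, black lines for group medians and grey dashes for each array's detection limit. Every point lies above its limit, those of Fabp1 at 218 times the limit or more, and the groups overlap for every gene.

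All 4 genes were above the detection limit on 12 of 12 arrays, also under each of 5 other definitions of the limit, such as the brightest control spot. The array holds 4 further fatty acid binding proteins beside these. Fabp5, a widely expressed form, had foreground of 226 to 410 in fucoidan mice and 189 to 676 in HFD mice. Fabp7, the brain form, had 139 to 269 in fucoidan mice and 131 to 213 in HFD mice. Both were above the limit on all 12 arrays, but Fabp7 lay at only 1.02 to 1.93 times the limit. With the mean plus 3 SD as the limit Fabp7 did not hold on every array, reading 139 against 152.7 on fucoidan replicate 1. Fabp9, the testis form, was above it on none, with 57 to 65 in fucoidan mice and 59 to 65 in HFD mice. Fabp3, the heart and muscle form, whose spot sits between those of Fabp2 and Fabp4, was above the limit only on fucoidan replicate 4, at 176, and elsewhere read 60 to 68.

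The comparison of the diets asked whether fucoidan changed these genes in liver of mice on the high-fat diet. None of the 4 passed. Normalised log2 intensities were compared with limma, with Benjamini-Hochberg adjustment over the 181 genes that were above the limit on at least 6 arrays. At an adjusted p under 0.05 limma called 0 of the 4, against 8.29% of all genes tested (15 of 181), with 3.87% higher and 4.42% lower, and 0 of the 4 had an unadjusted p under 0.05, against 22.1%. An exact permutation test per gene likewise called 0 of the 4 after adjustment, against 6.11% of the genes with a value on every array (11 of 180), and 0 of the 4 before it, against 23.3% (42 of 180). The diet groups were separate for 0 of the 4, against 6.08% of genes tested.

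Fabp1 averaged 15.30 ± 0.19 log2 units in fucoidan mice and 14.98 ± 0.34 in HFD mice (SD, n = 6 each). The difference was 0.32 (SE 0.15, 95% interval −0.01 to 0.65, limma adjusted p = 0.239), with 6 of 6 fucoidan mice above the HFD mean. Taken as a ratio this is 1.25, with an interval of 0.994 to 1.57. Without HFD replicate 1, the dimmest Fabp1 spot, it was 0.17, and without HFD replicate 2 it was 0.43 (limma adjusted p = 0.0739). The limma adjusted p ranged from 0.0739 to 0.419 over the 12 fits that left out 1 array. Beside it, 7 of 8 hepatocyte markers and 9 of 9 housekeeping genes had a positive log2 difference, with medians of 0.23 and 0.19, beside 109 of all 181 genes tested and a median of 0.05. The housekeeping genes summed to a foreground of 64778 to 103584 in fucoidan mice and 50663.5 to 87508 in HFD mice (1 of the 9 passed limma), and their part in the Fabp1 value was not tested.

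Fabp2 averaged 9.76 ± 0.34 log2 units in fucoidan mice and 9.47 ± 0.37 in HFD mice (SD, n = 6 each). The difference of 0.28 (SE 0.19, 95% interval −0.14 to 0.70, limma adjusted p = 0.41) was smaller than the spread between mice of either group, and 5 of 6 fucoidan mice were above the HFD mean. It stayed between 0.18 and 0.40 with single arrays left out.

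Fabp4 averaged 8.75 ± 0.64 log2 units in fucoidan mice and 8.72 ± 0.47 in HFD mice (SD, n = 6 each), a difference of 0.03 (SE 0.30, 95% interval −0.62 to 0.68, limma adjusted p = 0.936). Its direction is not settled, since it was −0.19 without fucoidan replicate 1 and below 0 also without fucoidan replicate 2 or HFD replicate 1, 2 or 3. The interval leaves room for ratios from 0.652 to 1.61.

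Cd36 averaged 9.48 ± 0.64 log2 units in fucoidan mice and 9.55 ± 0.72 in HFD mice (SD, n = 6 each), a difference of −0.07 (SE 0.36, 95% interval −0.85 to 0.71, limma adjusted p = 0.895). It was above 0 without fucoidan replicate 2, 5 or 6 or HFD replicate 2, 4 or 6, and it was 0.12 with no scaling between arrays. The interval leaves room for ratios from 0.556 to 1.64, so whether Cd36 changed within that range in either direction is not settled.

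The spread within a diet group, which mixes differences between mice with those between arrays and spots, was not the same for the 4 genes. After normalisation the within-group SD was 0.27 log2 units for Fabp1, 0.36 for Fabp2, 0.56 for Fabp4 and 0.68 for Cd36. The median over the 181 genes tested was 0.22. Cd36 ranked 17 and Fabp4 ranked 25 from the most variable gene of the 181, while Fabp2 ranked 46 and Fabp1 ranked 69. The Fabp1 SD also holds steps between ranks that the normalisation makes, as described below. HFD replicates 2 and 4 had a Fabp1 foreground of 35024 and 35345 but normalised values of 15.47 and 14.94. Before scaling, the Fabp1 SD was 14.3% of mean foreground in fucoidan mice and 8.14% in HFD mice.

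**Figure D2:**
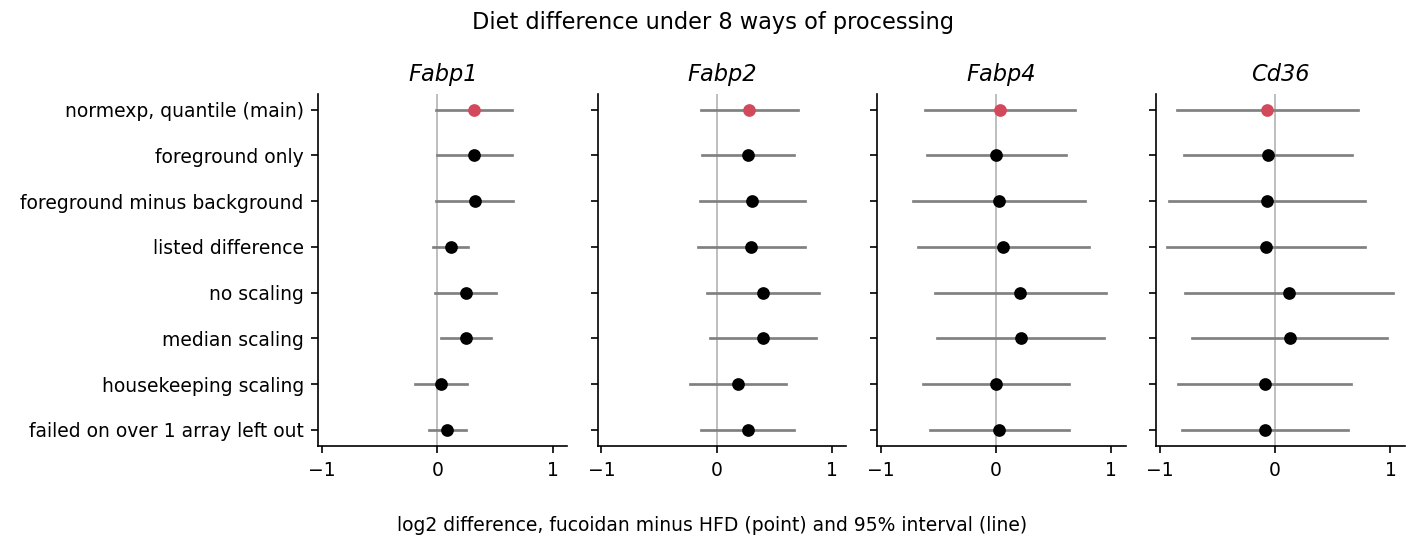
Log2 difference (fucoidan minus HFD, horizontal axis) of each gene with its 95% interval under the main processing (red) and 7 alternatives (black). The Fabp1 points run from 0.03 with housekeeping scaling to 0.32, and its interval leaves out 0 only with median scaling (0.03 to 0.46). The Fabp2 points stay above 0, but the intervals of Fabp2, Fabp4 and Cd36 include 0 in every row.

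The size of the Fabp1 difference depended on how arrays were put on 1 scale. Quantile normalisation gives a spot a value by its rank on its array, and Fabp1 ranked 2 to 3 from the top of the 354 gene spots in fucoidan mice (mean 2.5) and 2 to 6 in HFD mice (mean 3.83). Its normalised level therefore took only 2 distinct values in fucoidan mice, 15.12 and 15.47, and 4 in HFD mice, of which the lowest was 14.43 in HFD replicate 1. On HFD replicate 1 the spots brighter than Fabp1 included those of Cyp7a1 and Cyp8b1, both bile acid enzymes with a foreground of 112189, and Cdkn1a, a cell cycle inhibitor, at 29751. All 3 spots were failed spots. Brighter failed spots were present on 1 fucoidan array and on 4 HFD arrays.

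Leaving the failed spots out of the ranking put Fabp1 at 2 to 3 in fucoidan mice (mean 2.33) and at 2 to 4 in HFD mice (mean 2.83). The spots that failed on more than 1 array were also left out before normalisation, an alternative chosen after seeing the data that keeps Fabp1. Its log2 difference was then 0.09 with quantile normalisation (limma adjusted p = 0.656). It was 0.17 with median scaling (limma adjusted p = 0.528) and 0.24 with no scaling (limma adjusted p = 0.771). With listed differences the Fabp1 difference was 0.12 (limma adjusted p = 0.359). With the listed value of HFD replicate 5 recomputed, also chosen after seeing the data, it was 0.085 (limma adjusted p = 0.523). With arrays scaled to the housekeeping genes it was 0.03 (limma adjusted p = 0.873). That last scaling moved the median over all genes tested to −0.12, against 0.05 in the main fit. With all spots kept, Fabp1 had 0.24 with no scaling (limma adjusted p = 0.42). With median scaling it had 0.24 with an interval of 0.03 to 0.46 (limma adjusted p = 0.168). The sign stayed positive in all of these, and in none did the gene pass.

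**Figure D3:**
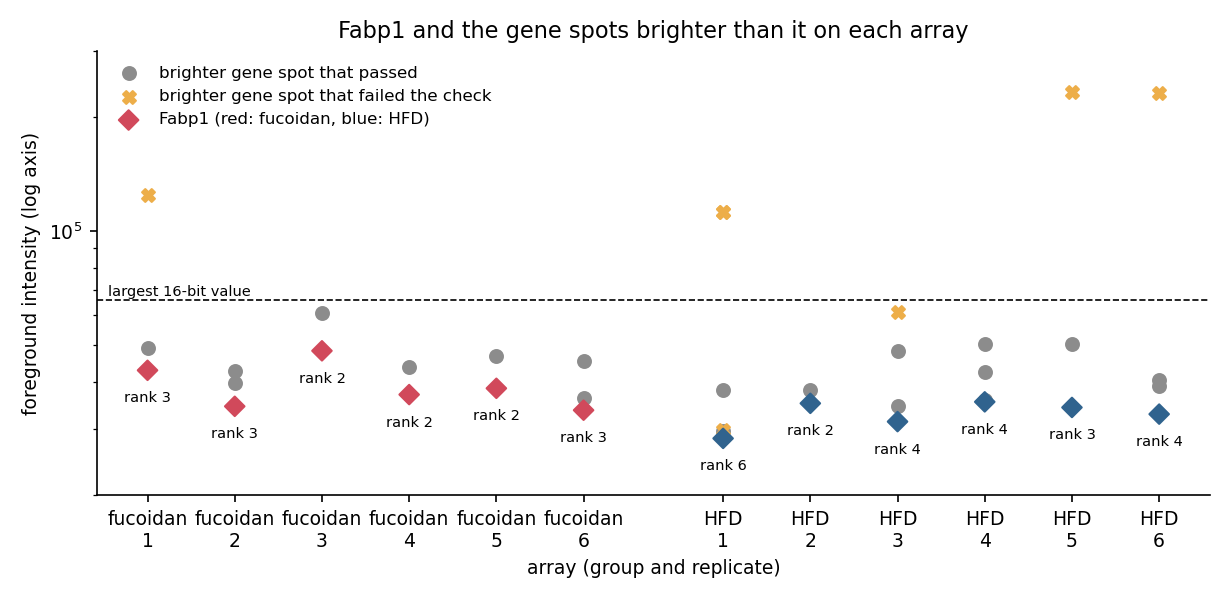
Foreground intensity (log axis) of Fabp1 (diamonds) on each array, with its rank from the top, and of the gene spots brighter than it, circles for spots that passed the check and crosses for failed spots. 4 of 6 HFD arrays carry a brighter failed spot, against 1 of 6 fucoidan arrays, and Fabp1 itself stays between 28292 and 48233.

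Differences of diet effect between the liver, gut and adipocyte or macrophage genes were compared within arrays over all 6 pairs, with exact two-sided permutation tests whose smallest possible p is 0.00216. Fabp1 minus Cd36 gave 0.39 log2 units (95% interval −0.48 to 1.25, exact permutation p = 0.318), with 5 of 6 fucoidan mice above the HFD mean. With no scaling between arrays it was 0.13 from foreground only and 0.11 from listed differences. Fabp2 minus Cd36 gave 0.35 (−0.40 to 1.12, exact permutation p = 0.348) and Fabp1 minus Fabp4 gave 0.29 (−0.62 to 1.16, exact permutation p = 0.483). Fabp2 minus Fabp4 gave 0.25 (−0.66 to 1.18, exact permutation p = 0.561), Fabp4 minus Cd36 gave 0.10 (−0.67 to 0.87, exact permutation p = 0.775) and Fabp1 minus Fabp2 gave 0.04 (−0.46 to 0.54, exact permutation p = 0.868). Adjusted over the 6 pairs, the permutation p was 0.841 to 0.868, so no isoform was shown to respond differently from another. Even the narrowest interval, that of Fabp1 minus Fabp2, leaves room for differences in either direction.

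Mice of the same diet differed in these genes, and the members were set against each other over the 12 mice after the group means were removed. Fabp4 and Cd36, which macrophages both express, had r = 0.55 and rho = 0.60 (permutation p = 0.072 and 0.0544, adjusted over 6 pairs 0.384 and 0.214). Fucoidan replicate 1 and HFD replicate 6 were high in both. Without these mice, the 2 farthest from the Fabp4 median, r was 0.14, so the size of r rests on them. Fabp2 and Cd36 had r = 0.49 and rho = 0.57 (permutation p = 0.128 and 0.0714, adjusted 0.384 and 0.214). Without fucoidan replicate 2 and HFD replicate 6, the 2 mice farthest from the Fabp2 median, r was 0.87. HFD replicate 6 was the mouse with high Cd36 and the lowest normalised Fabp2. The other 4 pairs had r of −0.32 to 0.27 (permutation p = 0.301 to 0.592) and rho of −0.51 to 0.29 (permutation p = 0.122 to 0.758). The lowest of both belonged to Fabp1 and Fabp4, with r = −0.59 without the 2 farthest mice, and none of the 6 passed after adjustment. Fabp1 entered its pairs with only 2 distinct normalised values in fucoidan mice and 4 in HFD mice, set by ranks that counted failed spots.

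The genes whose pattern over the mice was most like each member were named as the 3 of highest Pearson r among the 180 others, with group means removed and as a description over 12 arrays that share a slide. For Cd36 they were Ehhadh, a peroxisomal enzyme of fatty acid oxidation (r = 0.91), Mdh1, the cytosolic malate dehydrogenase (r = 0.90), and Hprt, a purine salvage enzyme (r = 0.85). The r with Ehhadh was 0.90 without the 2 farthest mice. HFD replicate 3 lay furthest below its group mean in both Cd36 and Ehhadh.

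For Fabp2 the 3 were Pfkfb1, the liver regulator of fructose 2,6-bisphosphate (r = 0.90, or 0.74 without the 2 farthest mice), Acat1, a mitochondrial thiolase (r = 0.76), and the thyroid hormone receptor Thrb (r = 0.75). Those of Fabp4 were the glycolytic enzymes Pkm (r = 0.78, or 0.80 without the 2 farthest mice) and Pgk1 (r = 0.77), and Rgs2, a regulator of G protein signalling (r = 0.68). Those of Fabp1 were the translation factor Eef1a1 (r = 0.84, or 0.60 without the 2 farthest mice), the lipid kinase Pik3c3 (r = 0.71) and the adiponectin receptor Adipor2 (r = 0.69). None of the 12 sat on a failed spot, and no gene was on more than 1 of the 4 lists. The normalised Fabp1 level, with 2 distinct values in fucoidan mice and 4 in HFD mice, still came from ranks that counted brighter failed spots. Fucoidan replicate 1, with a foreground of 42832 and a brighter failed spot, was set at 15.12. Fucoidan replicate 4, with a foreground of 36946, was set at 15.47. Hprt, Eef1a1 and Pgk1 are among the 9 housekeeping genes used here for scaling. The part of variation shared by whole arrays in these r values was not tested.

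**Figure D4:**
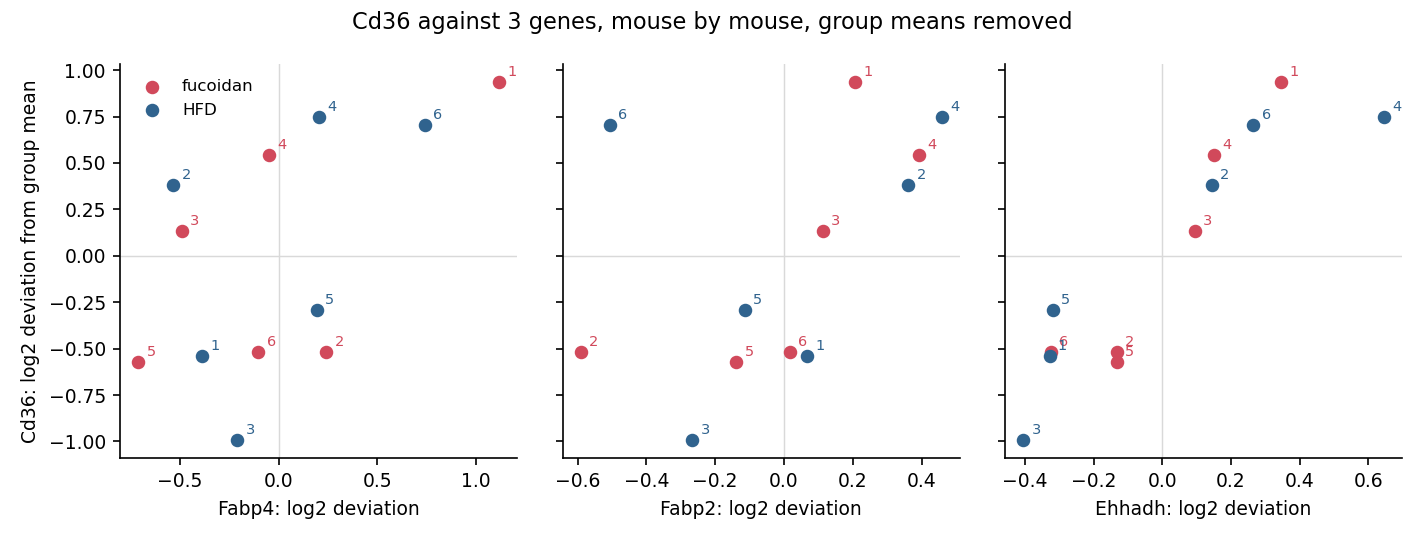
Cd36 (vertical axis) against Fabp4, Fabp2 and Ehhadh (horizontal axes) in 12 mice, as log2 deviations from the mean of the mouse's diet group, with points numbered by replicate. Ehhadh was picked as the gene of highest r with Cd36 among 180 (r = 0.91), so its closeness follows in part from that choice. The r of Cd36 with Fabp4 was 0.55, and 0.14 without fucoidan replicate 1 and HFD replicate 6. HFD replicate 6 departs from the relation of Cd36 with Fabp2.

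Other genes of fatty acid uptake, binding and activation, and their regulators, were on the array for 16 of 32 listed names, and 11 of these were tested. In limma 1 was higher, 1 was lower and 9 did not pass, so that 2 of 11 were called, against 8.29% of all genes tested (15 of 181), and their median log2 difference was 0.09 beside 0.05 over all genes tested. Acsl1, the synthetase that activates long-chain fatty acids once inside the cell, was higher at 12.37 ± 0.33 log2 units in fucoidan mice than the 11.68 ± 0.19 in HFD mice (SD, n = 6 each, limma adjusted p = 0.0122). Ffar1, a membrane receptor for long-chain fatty acids, was lower at 12.86 ± 0.16 in fucoidan mice than the 13.96 ± 0.24 in HFD mice (SD, n = 6 each, limma adjusted p = 4.52e-05), on a failed spot. With the failed spots left out Ffar1 has no value, and 0 of the 147 genes then tested passed in limma (15 at an unadjusted p under 0.05), so Acsl1 did not pass there. The next largest values did not pass: Hnf4a, a liver transcription factor, at 0.30 (SE 0.44), Ppara, the PPAR receptor of hepatocytes, at 0.28 (SE 0.36), both on failed spots, and the hepatic lipase Lipc at 0.21 (SE 0.14). The 2 further binding proteins that could be tested, Fabp7 at 0.14 (SE 0.14) and Fabp5 at −0.07 (SE 0.33), did not pass. Of the receptors, Pparg was above the limit on 5 arrays and Ppard on 0, as was the transporter Slc27a1, and none of these was tested.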

How the data were processed

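Liver RNA of 12 mice was measured, with groups taken from the sample labels. The scan (532 nm, GenePix 4000B) was read with GenePix Pro 6.0.1.27, per the file headers. The deposited raw table holds linear intensity (foreground, background, difference), unscaled; later steps by the authors are not given in the sources used here. The deposited value table (intensity) has 354 unnamed rows, 0 of which matched a member, so it was not used.

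Each spot was checked with Python 3.11.15, numpy 2.4.6, pandas 2.3.3 and scipy 1.17.1. In R 4.3.3 with limma 3.58.1, intensities were corrected with normexp (offset 50), quantile normalised over 354 gene spots and fitted on the log2 scale (lmFit, eBayes, two-sided, Benjamini-Hochberg, threshold 0.05), after a check on simulated data. The offset draws differences of dim spots towards 0. Each likeness list took the 3 genes of highest r; of the fatty acid list, the genes that passed and the 5 largest differences were named, with Fabp5, Fabp7 and the untested genes added after their values were seen. Alternatives covered background, scaling, filter, failed spots, test and single arrays. Members and lists were chosen with earlier results of these data known. Some 315 of 331 listed names were current RefSeq symbols, including all members. Protein sequences were not analysed here. One marker gene is not reported here.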

Additional observations from a re-analysis of the deposited data

Results flagged for a closer look

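Fabp3, the heart and muscle form, had a foreground of 176 on fucoidan replicate 4, while the other 5 fucoidan mice read 60 to 65. The gap to the nearest mouse was 0.957 of the group's range, above Dixon's critical value of 0.625 for 6 samples. It was the 1 value flagged in 24 groups tested over the fatty acid binding proteins and Cd36, and chance alone flags about 1 in 20. The 24 hold Fabp1, Fabp2, Fabp4 and Cd36 both as foreground and as normalised values, so they are not separate tests. Fabp3 was tested on foreground only. The other muscle markers on the array, Ucp3 (55 to 60), Slc2a4 (56 to 63) and Pygm (66 to 83), were above the detection limit on no array.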

How the results depend on the processing

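None of Fabp1, Fabp2, Fabp4 and Cd36 passed under any alternative or with any array left out. Fabp1 and Fabp2 kept their sign throughout (Fabp1 0.03 to 0.32 and Fabp2 0.18 to 0.40 over the settings, and 0.17 to 0.43 and 0.18 to 0.40 with single arrays left out). Leaving out every failed spot gave Fabp1 no value. Fabp4 turned to −0.00159 with housekeeping scaling and ran from −0.19 to 0.18 with single arrays left out. Cd36 turned to 0.12 with no scaling and 0.12 with median scaling, and, with the spots that failed on more than 1 array left out, to 0.13 with no scaling and 0.055 with median scaling; single arrays left out gave −0.27 to 0.082. For differences between members, Fabp1 minus Fabp2 turned to −0.16 with foreground only and no scaling together and to −0.19 with listed differences and no scaling together, and ran from −0.12 to 0.14 with single arrays left out; Fabp1 minus Fabp4 turned to −0.00832 with listed differences and no scaling together; Fabp4 minus Cd36 ran from −0.078 to 0.26 with single arrays left out. The causes of these turns were not tested.

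The count of genes called, 15 in the main fit (7 higher, 8 lower), was 25 with listed differences, also with the Fabp1 value recomputed, and 9 to 17 with single arrays left out (9 without HFD replicate 3 or 5). It was 0 of 147 without the failed spots and 0 of 148 without those that failed on more than 1 array, under quantile, no and median scaling (at an unadjusted p under 0.05, 15 of the 147 and 16, 6 and 18 of the 148). The split of higher and lower calls was 2 and 10 with no scaling, 5 and 10 with median scaling and 2 and 11 with housekeeping scaling. The replicate block gave 9 calls and 0 of the members, but same-numbered mice correlated at −0.24 to 0.16, with 1 of 6 best matched by its own number, so the samples share only a number. Fabp4 foreground was as low as 1.84 times the detection limit.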
